A study of Arabidopsis thaliana with 8 samples.

Results

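Transcript levels of 10 transcription factors that control synthesis of the plant cuticle were examined in the epidermis and in the mesophyll of Arabidopsis thaliana embryo cotyledons. The factors were chosen by function and were found in the count tables by gene identifier. They were 10 of 33602 gene models counted, and 4 of the 10 were among the 15794 genes that passed the filter on low counts. The filter asked for a count per 1000000 counted pairs (CPM) of 1 or more in no fewer than 4 of the 8 libraries.

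The cuticle is the lipid layer that the epidermis lays down on its outer face. It consists of cutin, a polyester of oxygenated fatty acids, and of waxes made from very-long-chain fatty acids, and the genes for both are switched on by a small set of MYB and AP2/ERF transcription factors. In the embryo the layer forms on the protoderm, the outermost cells, while the seed still grows.

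Cutin synthesis is promoted by the AP2/ERF factors SHN1 (AT1G15360, also called WIN1), SHN2 (AT5G11190) and SHN3 (AT5G25390) and by the MIXTA-like factors MYB16 (AT5G15310) and MYB106 (AT3G01140), which act upstream of SHN1. Wax synthesis is activated by MYB94 (AT3G47600), MYB96 (AT5G62470) and MYB30 (AT3G28910). MYB96 is known from the response to drought and abscisic acid, and MYB30 from the hypersensitive response to pathogens. MYB41 (AT4G28110) can switch on suberin-type polyester synthesis when it is over-expressed, and DEWAX (AT5G61590) is an AP2/ERF repressor of wax genes that is induced in the dark.

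The samples were 4 epidermis and 4 mesophyll libraries from untreated wild-type plants of the Columbia accession (Col-0), and both groups shared this genotype and their growth. The study describes growth in a greenhouse, and the labels differ from the study on growth conditions. Both tissues were cut by laser from paraffin sections of seeds, and the labels give the Boyes stage as 6.30, while the study speaks of torpedo embryos in one place and of linear embryos in another. RNA was amplified from a very small input without molecular identifiers and without strand information, and 27676412 to 36685627 read pairs were counted per library. The study describes 4 biological replicates per tissue, taken on different harvest dates, each from an individual plant. The labels do not tie a replicate number to a plant or a harvest date, so p-values and the 95% intervals of fold changes measure the spread between these libraries. The limits given for counts of 0 cover counting error only.

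The labels were checked with marker genes whose CPM were summed in each library. The 5 protoderm markers, ATML1, PDF1, PDF2, FDH and LTPG1, summed to 3436 ± 980 CPM in epidermis and 447 ± 181 CPM in mesophyll (mean ± SD, n = 4), so that mesophyll held 13.0% of the epidermis level. The 9 photosynthesis genes summed to 13969 ± 2359 CPM in epidermis and 19968 ± 651 CPM in mesophyll. Neither sum overlapped between the tissues (two-sided exact permutation test, p = 0.0286, the smallest that 70 arrangements can give). Of the 9 photosynthesis genes, LHCB1.2, RBCS1B and RBCS3B were called lower in epidermis in the fit across all genes described below. That fit called 0.101% of all tested genes lower. Markers of other seed tissues differed too: 16 endosperm genes summed to 239 to 346 CPM in epidermis and 18.6 to 73.2 CPM in mesophyll, with 6 of the 16 at 0 in each tissue, and 16 seed coat genes to 22.7 to 65.3 CPM and 6.75 to 14.0 CPM, with 6 and 7 of the 16 at 0 (exact permutation p = 0.0286 for both). PHE1, PHE2 and AGL36 of the endosperm and TT16, MYB61 and SHP2 of the seed coat were at 0 in all 8 libraries. Of the genes that passed the filter, all 6 of the endosperm and all 3 of the seed coat were fitted higher in epidermis. Several of them, among them ZOU, MYB118, NARS1 and MYB56, were below 1 CPM in most or all mesophyll libraries. They passed the filter through their level in epidermis, and nothing is read from their shared direction. SUC5 of the endosperm was called (145 against 44.7 CPM, edgeR quasi-likelihood test, adjusted p = 0.0268). So was NARS1 of the seed coat (14.1 against 0.0170 CPM, adjusted p = 0.0189). MYB118 averaged 23.9 against 0.729 CPM and was not called (adjusted p = 0.0823). The study, which used a likelihood ratio test, lists MYB118 as higher in epidermis and from it proposes a probable endosperm contamination of the epidermis. The part of endosperm or seed coat RNA in the values given here was not tested, and in such bulk samples fewer cells of a type cannot be told apart from less RNA per cell.

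The promoters of the 4 factors that passed the filter are shown first, since the data on these factors lead to a comparison of them. Each sequence holds the 300 bases before the annotated start of the gene in the RefSeq annotation of TAIR10.1, read in the direction of the gene, and capitals mark motif matches.
MYB94 promoter, chr3:17541308-17541607, minus strand: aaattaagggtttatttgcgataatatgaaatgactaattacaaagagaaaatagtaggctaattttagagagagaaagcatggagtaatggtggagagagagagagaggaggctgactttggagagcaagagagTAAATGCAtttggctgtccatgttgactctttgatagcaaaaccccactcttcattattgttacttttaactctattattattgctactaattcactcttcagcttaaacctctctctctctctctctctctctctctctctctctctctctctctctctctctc
MYB96 promoter, chr5:25081142-25081441, minus strand: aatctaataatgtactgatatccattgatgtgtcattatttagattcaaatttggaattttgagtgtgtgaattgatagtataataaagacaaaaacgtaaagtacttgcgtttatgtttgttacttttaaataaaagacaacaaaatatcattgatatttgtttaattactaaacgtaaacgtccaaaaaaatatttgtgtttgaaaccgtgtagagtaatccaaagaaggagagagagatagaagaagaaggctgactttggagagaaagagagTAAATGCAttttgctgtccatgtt
MYB30 promoter, chr3:10910832-10911131, plus strand: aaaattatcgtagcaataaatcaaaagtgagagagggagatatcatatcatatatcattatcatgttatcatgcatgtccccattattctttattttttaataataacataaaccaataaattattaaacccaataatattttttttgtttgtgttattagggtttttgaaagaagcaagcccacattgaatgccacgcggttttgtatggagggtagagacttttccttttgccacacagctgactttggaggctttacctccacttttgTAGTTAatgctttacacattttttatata
DEWAX promoter, chr5:24765512-24765811, minus strand: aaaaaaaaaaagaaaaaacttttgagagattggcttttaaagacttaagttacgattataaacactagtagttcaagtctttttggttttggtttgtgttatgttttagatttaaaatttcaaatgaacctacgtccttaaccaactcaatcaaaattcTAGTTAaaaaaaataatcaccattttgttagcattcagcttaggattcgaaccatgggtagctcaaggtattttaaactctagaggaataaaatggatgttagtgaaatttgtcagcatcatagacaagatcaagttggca
The capitals in MYB94 and MYB96 are an L1 box, the word bound by the protoderm factors ATML1 and PDF2, and those in MYB30 and DEWAX are a MYB element on the opposite strand.

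In the fit across all genes, 171 genes differed between the tissues, which is 1.08% of those tested (edgeR quasi-likelihood F test with replicate number as a block, Benjamini-Hochberg adjusted p of 0.05 or less). The 155 genes higher in epidermis made up 0.981% and the 16 lower in epidermis 0.101%, and the median log2 fold change of all tested genes was -0.04. None of the 4 tested cuticle factors was among the 171, where the count at an unadjusted p under 0.05 was 2 of the 4 (MYB94 and MYB96) and 1867 of all genes. The likelihood ratio test and DESeq2 each called MYB94 and MYB96, and the bias-adjusted quasi-likelihood test called these 2 and MYB30. The study used the likelihood ratio test and lists MYB94 and MYB96 among its transcription factors higher in epidermis. The libraries of the 2 tissues did not overlap for 3 of the 10 factors, MYB94, MYB96 and MYB30. All 3 were among the 4 tested, and each was higher in epidermis. MYB96 passed the filter through its level in epidermis, so nothing is read from its lack of overlap. Of all tested genes, 5.5% had every epidermis library above every mesophyll library.

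**Figure D1:**
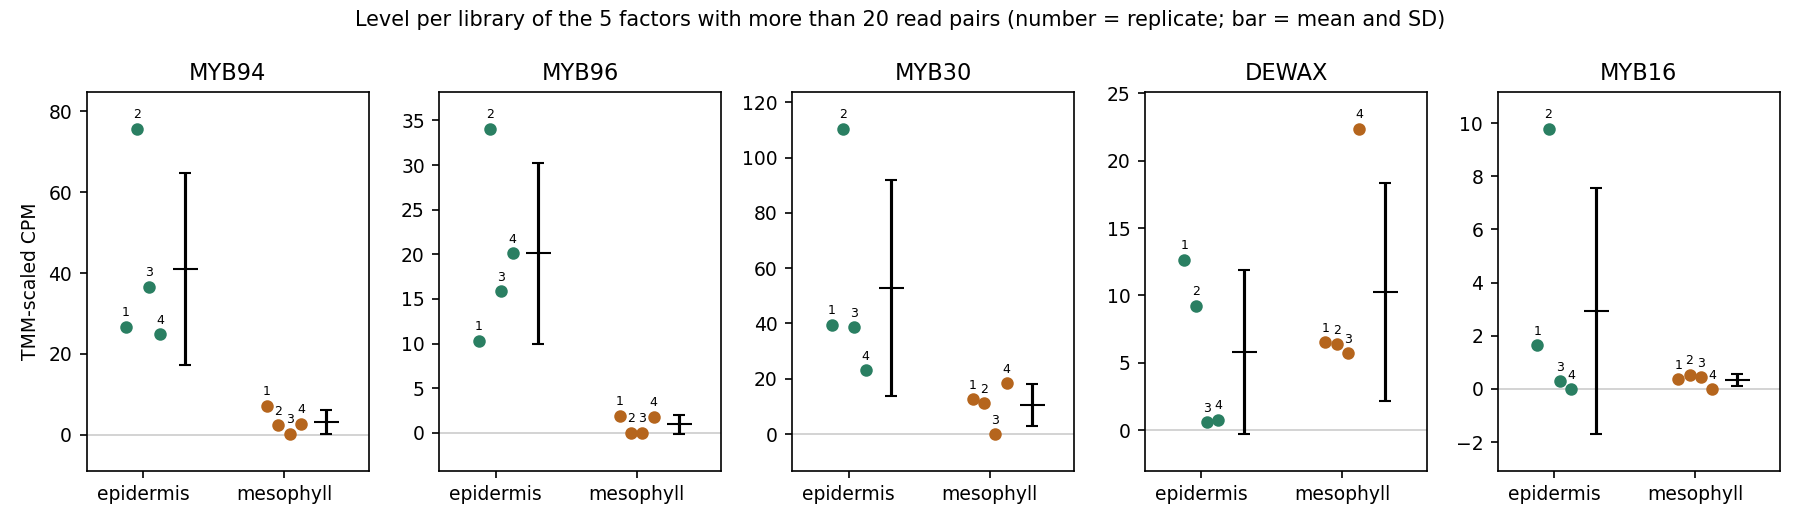
TMM-scaled CPM (vertical axis, linear, a scale per panel) of the 5 factors with more than 20 read pairs, in the 4 epidermis and 4 mesophyll libraries, with points numbered by replicate and bars at mean and SD. All epidermis points lie above all mesophyll points for MYB94, MYB96 and MYB30, the points of DEWAX overlap, and MYB16 rises above 2 CPM only in epidermis replicate 2.

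MYB94, an activator of wax synthesis, was the factor with the smallest p. In epidermis replicates 1 to 4 its level was 26.7, 75.7, 36.6 and 24.9 CPM, against 7.20, 2.38, 0.233 and 2.71 CPM in the same order of mesophyll replicates. The lowest epidermis library was above the highest mesophyll library, epidermis replicate 2 stood highest, and mesophyll replicate 3 was nearly empty of this transcript. The means were 41.0 ± 23.7 CPM and 3.13 ± 2.93 CPM (SD, n = 4), which put mesophyll at 7.63% of epidermis. The log2 fold change of epidermis over mesophyll was 4.19 (SE 0.90, 95% interval 2.11 to 6.26), and the adjusted p of 0.0823 from the edgeR quasi-likelihood test missed the threshold. Of all tested genes, 1.84% had a larger fold change.

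The call for MYB94 depended on the test. It passed at adjusted p = 0.0385 without the block (edgeR, 1.75% of genes called higher), at 1.19e-04 with edgeR's likelihood ratio test (3.53%), at 5.13e-08 with DESeq2 (4.98%), at 0.00252 with the bias-adjusted form of the quasi-likelihood test in edgeR (2.99%) and at 0.0481 with a filter of 10 CPM (1.85%). Over all alternatives its adjusted p ranged from 5.13e-08 to 0.304, the latter without replicate 2, and its log2 fold change from 3.24 to 5.02.

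MYB96, which activates many of the same wax genes, was carried almost wholly by the epidermis libraries. The epidermis replicates held 10.3, 34.1, 15.9 and 20.1 CPM, and the mesophyll replicates 1.92, 0, 0 and 1.80 CPM. No pair was counted in mesophyll replicates 2 and 3, and epidermis replicate 2 was again the highest. The means were 20.1 ± 10.1 CPM and 0.932 ± 1.08 CPM, and mesophyll held 4.64% of the epidermis level. MYB96 reached 1 CPM in all 4 epidermis libraries and in 2 mesophyll libraries, so that it passed the filter through its level in epidermis. Nothing is read from its lack of overlap.

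The log2 fold change of MYB96 was 5.98 with an SE of 1.95 and a 95% interval of 1.50 to 10.46, and the adjusted p was 0.248 (edgeR quasi-likelihood test). It was called by the likelihood ratio test (adjusted p = 0.0182), by DESeq2 (0.00651) and by the bias-adjusted quasi-likelihood test (0.00539), and its adjusted p over the alternatives reached 0.529 without replicate 3. Its log2 fold change was 8.04, 4.40, 4.48 and 7.75 without replicate 1, 2, 3 and 4 in turn.

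MYB30, an activator of very-long-chain fatty acid synthesis, had the highest CPM of the 10 factors in epidermis. The epidermis replicates held 39.6, 110.5, 38.6 and 23.1 CPM, whereas 12.7, 11.2, 0 and 18.3 CPM were measured in mesophyll. The groups did not overlap, but epidermis replicate 4 and mesophyll replicate 4 lay close together. The means were 52.9 ± 39.1 CPM and 10.5 ± 7.67 CPM, and mesophyll held 19.9% of the epidermis level. The log2 fold change was 2.84 (SE 1.29, 95% interval -0.12 to 5.81) with an adjusted p of 0.455 (edgeR quasi-likelihood test).

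The difference in MYB30 was called by the bias-adjusted quasi-likelihood test in edgeR alone (log2 fold change 2.26, adjusted p = 0.0412), and the adjusted p over the other alternatives ran up to 0.743. With the block kept, its log2 fold change was 3.55, 2.58, 1.75 and 3.88 without replicate 1, 2, 3 and 4 in turn. The lowest of these leaves out the mesophyll library with no MYB30 pair.

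**Figure D2:**
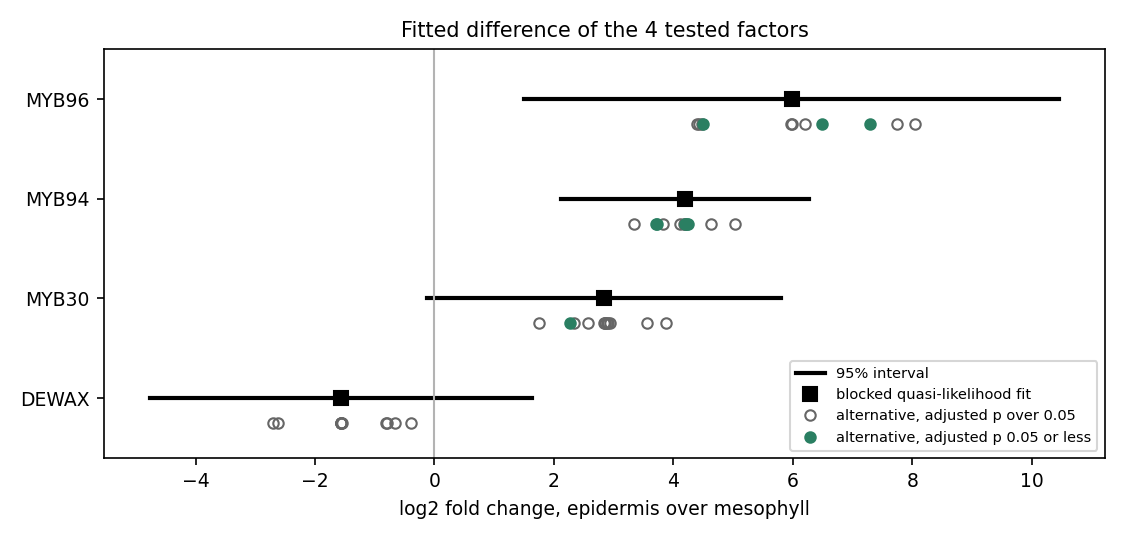
Log2 fold change of epidermis over mesophyll (horizontal axis) of the 4 tested factors, with squares and 95% intervals from the blocked quasi-likelihood fit and circles for the alternatives other than leaving out single libraries, filled where the adjusted p was 0.05 or less. The circles of MYB94, MYB96 and MYB30 all lie above 0, those of DEWAX all lie below 0 and none of them is filled.

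DEWAX, the repressor, was higher on average in mesophyll, but its levels in the tissues overlapped. The 4 epidermis replicates gave 12.6, 9.25, 0.586 and 0.775 CPM, and the 4 mesophyll replicates 6.55, 6.36, 5.72 and 22.4 CPM. Epidermis replicates 1 and 2 lay above 3 of the mesophyll libraries and below mesophyll replicate 4, whereas epidermis replicates 3 and 4 lay below them all. The means were 5.81 ± 6.09 CPM and 10.3 ± 8.09 CPM. The log2 fold change was -1.57 (SE 1.39, 95% interval -4.76 to 1.63) with an adjusted p of 0.773 (edgeR quasi-likelihood test), and no alternative called it. With the block kept it was -2.70, -2.63, -0.65 and -0.40 without replicate 1, 2, 3 and 4 in turn. In the fit without the block it was -0.82, and -0.10 once mesophyll replicate 4 was left out as well.

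Levels of different genes were compared per kilobase of the gene model. In epidermis the order of CPM per kilobase was MYB30 with 33.3 ± 24.6, MYB94 with 27.6 ± 16.0, MYB96 with 11.5 ± 5.82, DEWAX with 6.56 ± 6.86 and MYB16 with 2.21 ± 3.49. The libraries of each neighbouring pair in this order overlapped, but within a library MYB94 was above MYB96 in 4 of 4 epidermis libraries, by ratios of 3.04, 2.61, 2.70 and 1.45. MYB30 and MYB94 did not separate, with ratios of MYB30 over MYB94 of 1.38, 1.36, 0.984 and 0.864. In mesophyll the order was DEWAX with 11.6 ± 9.12 CPM per kilobase, MYB30 with 6.62 ± 4.82, MYB94 with 2.105 ± 1.97, MYB96 with 0.534 ± 0.617 and MYB16 with 0.248 ± 0.174, and the libraries of each neighbouring pair overlapped here too.

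DEWAX and MYB94 changed order between the tissues. Per kilobase, the ratio of DEWAX over MYB94 was 0.793, 0.205, 0.0268 and 0.0521 in epidermis replicates 1 to 4 and 1.53, 4.49, 41.2 and 13.8 in mesophyll replicates 1 to 4. DEWAX was below MYB94 in 4 of 4 epidermis libraries and above it in 4 of 4 mesophyll libraries. The ratio was formed after the levels were seen and was not tested.

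Epidermis replicate 2 was the highest library for MYB94, MYB96, MYB30 and MYB16. It also held the highest protoderm sum, 4858 CPM against 2675 to 3275 CPM in the other epidermis libraries, and the highest sum of 13 rapid stress and touch response genes, 1447 CPM against 182 to 383 CPM. Mesophyll replicate 3 was the lowest library for MYB94 and MYB30, and no pair of MYB96 was counted in it. Its protoderm sum was 182 CPM against 479 to 564 CPM in the other mesophyll libraries, its endosperm sum 18.6 CPM and its stress sum 38.3 CPM against 128 to 233 CPM. The stress sums of the tissues overlapped, with 553 ± 603 CPM in epidermis and 133 ± 79.7 CPM in mesophyll (two-sided exact permutation test, p = 0.0857). Of the 11 tested stress genes, the edgeR quasi-likelihood test with the block called 0, with 8 at an unadjusted p under 0.05 and a median log2 fold change of 3.09. The likelihood ratio test in edgeR and DESeq2 called 7 each (CBF1, STZ, ZAT12, WRKY33, ERF5, TCH2 and TCH4), and the bias-adjusted test called 4 of them, all higher in epidermis. Of all tested genes, the likelihood ratio test called 3.53% higher in epidermis, DESeq2 4.98% and the bias-adjusted test 2.99%. TCH4, an enzyme of the cell wall, averaged 182 ± 190 CPM in the epidermis against 54.7 ± 37.9 CPM in the mesophyll, and TCH2, a calmodulin-like protein, at 124 ± 94.2 CPM and 47.4 ± 18.3 CPM. The part of these differences in the values of the factors was not tested.

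Because the protoderm markers also varied between libraries, each factor was expressed per 1000 CPM of the 5 protoderm markers in the same library. On this scale MYB94 was 7.56, 15.8, 14.8 and 7.96 in epidermis replicates 1 to 4 and 12.7, 4.27, 1.33 and 5.55 in mesophyll replicates 1 to 4, and the tissues overlapped through mesophyll replicate 1. MYB96 was 2.92, 7.09, 6.42 and 6.43 against 3.40, 0, 0 and 3.70, and again overlapped, through epidermis replicate 1. MYB30 was 11.2, 23.0, 15.6 and 7.37 against 22.4, 20.1, 0 and 37.6, with the higher mean in mesophyll. The 3 activators were separated between the tissues in CPM, but overlapped on this scale. The protoderm sum in the denominator was far lower in mesophyll, at 13.0% of the epidermis level. A gene lowered in mesophyll by a like share would also overlap here, and a gene lowered less would come out higher in mesophyll. Nothing is read from the overlap or from the mean of MYB30.

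For DEWAX this scale adds little to the CPM. Per 1000 CPM of protoderm markers it was 3.58, 1.93, 0.237 and 0.247 in epidermis and 11.6, 11.4, 32.8 and 45.9 in mesophyll, so that the lowest mesophyll library was above the highest epidermis library. The protoderm sum in the denominator was itself far lower in mesophyll (13.0% of the epidermis level), so that a gene of equal CPM in both tissues would also come out higher in mesophyll, and nothing is read from this order of the libraries.

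**Figure D3:**
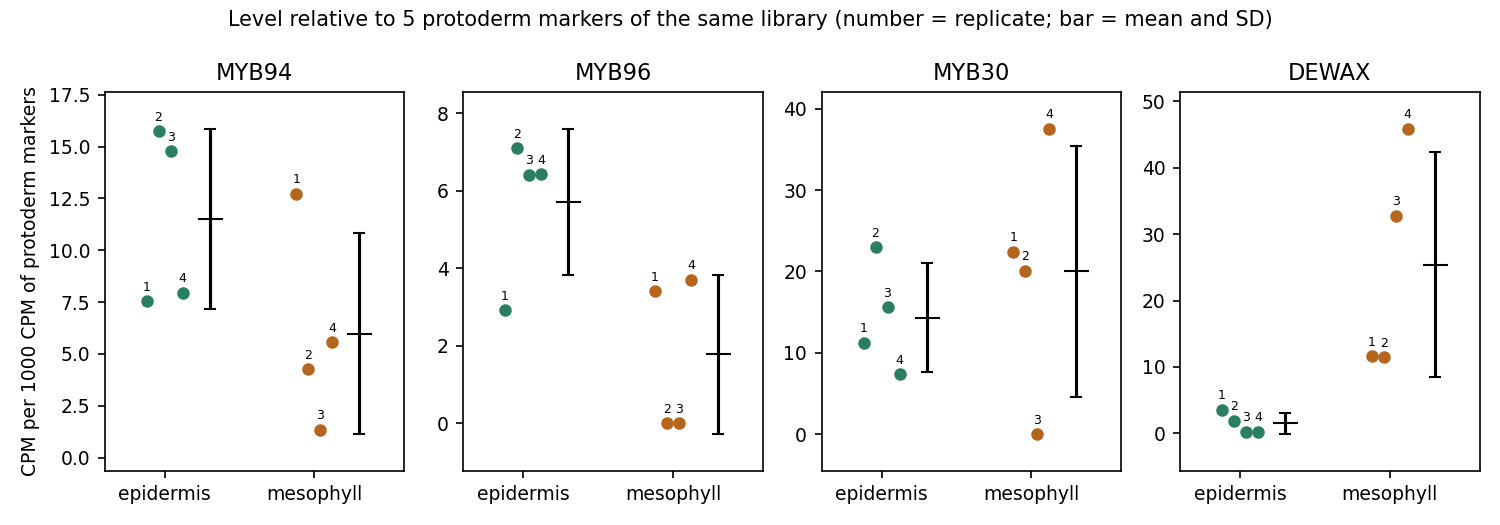
CPM of MYB94, MYB96, MYB30 and DEWAX per 1000 CPM of 5 protoderm markers in the same library (vertical axis, linear, a scale per panel), with points numbered by replicate and bars at mean and SD. The tissues overlap for the 3 MYB factors. The 4 mesophyll libraries of DEWAX lie above its 4 epidermis libraries, as those of a gene of equal CPM in both tissues would on this scale.

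The SHN factors of cutin synthesis were at or near the limit of detection. No read pair was assigned to SHN1 or SHN3 in any of the 8 libraries, out of 246800207 pairs counted, and the same held when reads were counted singly. A count of 0 in a library allows a level of up to 3 pairs, or 0.0880 to 0.107 CPM. SHN2 had 5 pairs in all, with 1, 0, 1 and 2 in epidermis replicates 1 to 4 and 1 in mesophyll replicate 3. A difference in these genes was not detectable at this depth. SHN2 is overlapped by AT5G01855 in the annotation, and without strand the reads of overlapping genes cannot be told apart.

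MYB16 and MYB106, the MIXTA-like factors, did not pass the filter. MYB16 had 56, 274, 9 and 0 pairs in epidermis replicates 1 to 4, or 1.65, 9.79, 0.293 and 0 CPM, and 10, 18, 13 and 0 pairs in the mesophyll replicates, or 0.356, 0.528, 0.432 and 0 CPM. Epidermis replicate 2 gave most of the 339 epidermis pairs, epidermis replicate 3 lay below 3 of the mesophyll libraries, and replicate 4 held none in either tissue. In a fit without the filter its log2 fold change was 1.85 (SE 2.02) and the edgeR quasi-likelihood adjusted p was 0.865. MYB106 had 0, 1, 0 and 3 pairs in epidermis and 6, 0, 2 and 0 in mesophyll, and it is overlapped by AT3G01142.

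MYB41 was listed at 0 pairs in all 8 libraries, with the same limit of 3 pairs per library. Of the 10 factors, 3 were therefore at 0 everywhere (SHN1, SHN3 and MYB41), 2 had 1 to 20 pairs in all (SHN2 and MYB106), 1 failed the filter with more (MYB16), and 4 were tested.

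Near-identical copies could divide reads between genes, because pairs that matched several models were discarded. The longest stretch shared exactly by 2 of the 10 transcripts was 53 bases, between MYB94 and MYB96, and it is shown since both are central to the results.
MYB94 and MYB96 shared stretch: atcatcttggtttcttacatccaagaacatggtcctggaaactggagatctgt
MYB106 and MYB16 shared 32 bases, and SHN1 and SHN3 shared 25. These stretches are short against the gene models, which are 1486 bases for MYB94 and 1745 bases for MYB96.

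The wax genes that MYB96, MYB94 or MYB30 activate were examined next, from a list of 11 genes. Of these, 8 were tested, 4 were called higher in epidermis and none lower, where 0.981% of all tested genes were called higher. The median log2 fold change was 3.18 against -0.04 for all tested genes. FDH, a ketoacyl-CoA synthase of the epidermis, rose by a log2 fold change of 3.20 (SE 0.19, adjusted p = 0.00150), from 35.8 ± 11.8 CPM in mesophyll to 329 ± 102 CPM in epidermis. FDH also belongs to the protoderm markers with which the labels were checked. KCS6, the condensing enzyme of stem wax synthesis also known as CER6, rose by 3.16 (SE 0.32, adjusted p = 0.00429), from 18.7 ± 8.62 CPM to 154 ± 57.9 CPM. KCS1, another condensing enzyme, rose (adjusted p = 0.0282), with 13.6, 34.3, 7.22 and 2.02 CPM in epidermis and at most 0.0880 CPM in mesophyll. Its fitted log2 fold change of 8.60 (SE 1.37) rests on 4 read pairs in all 4 mesophyll libraries together and is neither a precise size nor a lower bound. CER3, which acts in alkane formation, rose by 3.82 (SE 0.62, adjusted p = 0.0298).

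Calls in the wax list depended on single replicates. KCS1 lost its call in the edgeR quasi-likelihood test without replicate 1, 2 or 3 (adjusted p = 0.111, 0.220 and 0.117), and so did CER3 (0.110, 0.0891 and 0.108), so that 2 of 8 genes, FDH and KCS6, stayed called without replicate 1, 2 or 3. The condensing enzyme KCS2 had a log2 fold change of 5.01 and an adjusted p of 0.126. The other enzymes of the elongation cycle, KCR1, PAS2 and CER10, had 0.27, 0.73 and 0.84 (adjusted p = 0.682, 0.108 and 0.0723), with 74.5 CPM or more in every library of both tissues. CER2 failed the filter with 0, 5.97, 6.51 and 0 CPM in epidermis, and CER4 and WSD1, which make primary alcohols and wax esters, were at 0 pairs.

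All 5 tested genes of the cutin list were called higher in epidermis, of 11 genes in the list, with a median log2 fold change of 3.28. The share of all tested genes called higher was 0.981%. DCR, an acyltransferase of cutin synthesis, rose by 2.93 (SE 0.20, adjusted p = 0.00191), from 121 ± 38.8 CPM to 900.5 ± 230.0 CPM. BDG, an extracellular hydrolase-like protein, rose by 3.28 (SE 0.36, adjusted p = 0.00557), and LACS2, a long-chain acyl-CoA synthetase, by 4.10 (SE 0.47, adjusted p = 0.00668). HTH, an oxidoreductase-like protein, rose by 2.93 (adjusted p = 0.0165) and CYP86A8, a fatty acid hydroxylase, by 3.30 (adjusted p = 0.0222). CYP86A8 lost its call without replicate 1 or 3 (adjusted p = 0.113 for both in edgeR) and HTH without replicate 3 (0.0992).

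These 5 genes were called in the same libraries in which SHN1 and SHN3 were at 0 pairs and SHN2 at 0 to 2 pairs. The other 6 cutin genes failed the filter. GPAT4, an acyltransferase, had 0, 6.18, 1.66 and 6.13 CPM in epidermis and at most 0.285 CPM in mesophyll, CYP86A4 reached 6.07 CPM in epidermis replicate 2 and at most 0.0587 CPM elsewhere, and CYP86A7 was at 0. GPAT6 and GPAT8 stayed at or below 0.143 CPM, and CYP77A6 was at most 0.0357 CPM in epidermis and 3.67 CPM in mesophyll replicate 1.

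**Figure D4:**
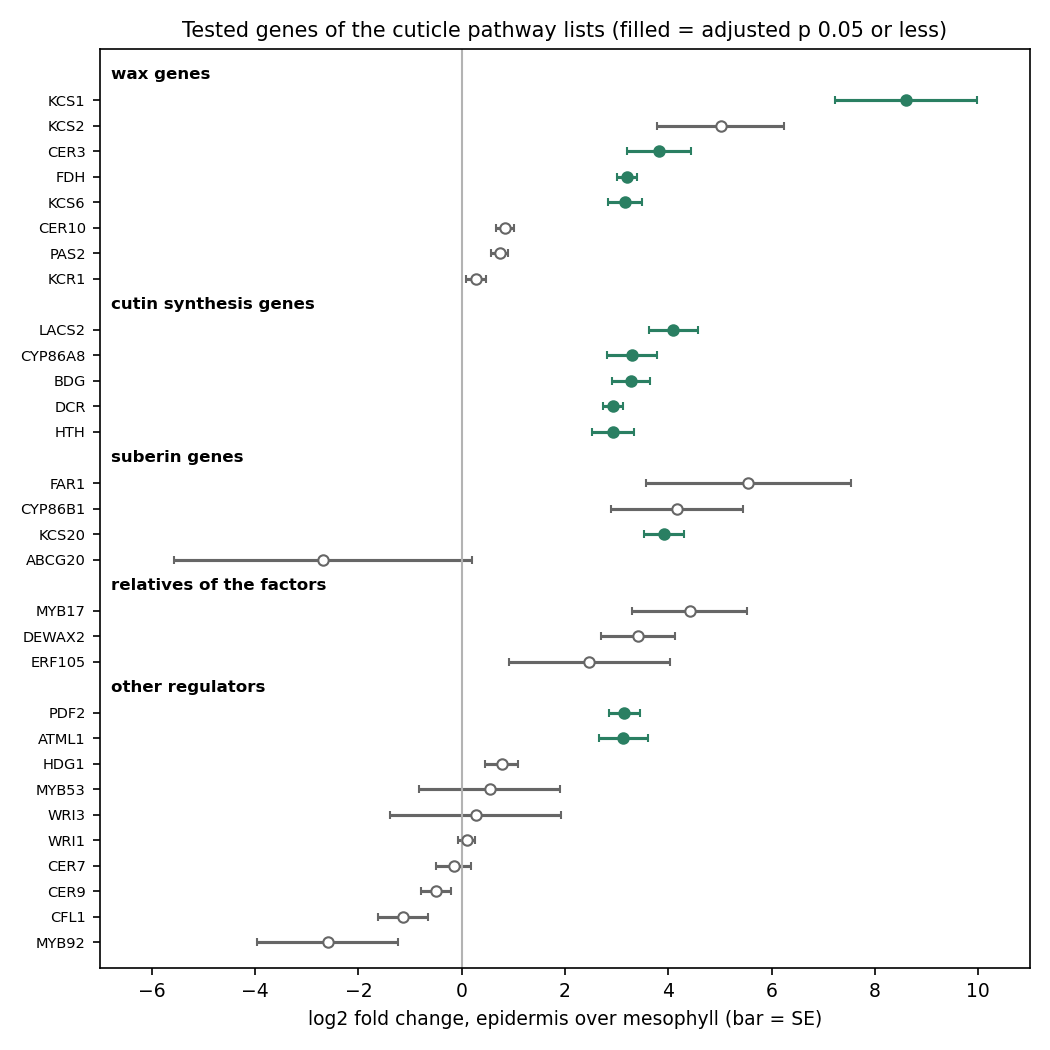
Log2 fold change of epidermis over mesophyll with SE (horizontal axis) of the tested genes of 5 cuticle and suberin lists, with filled points for genes called at an adjusted p of 0.05 or less. All 5 cutin genes and 4 of 8 wax genes are filled to the right of 0, no relative of the factors is filled, and no gene is filled to the left of 0.

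Genes that DEWAX represses were described from a list of 4, of which 2 also stand in the lists above. LACS2 was called higher in epidermis, with 172, 205, 92.4 and 229 CPM in epidermis and 19.8, 11.6, 8.68 and 3.87 CPM in mesophyll. CER10 had a log2 fold change of 0.84 and ACLA2, a subunit of ATP-citrate lyase, of 0.10 (adjusted p = 0.0723 and 0.904, edgeR quasi-likelihood test). CER1, the partner of CER3 in alkane formation, failed the filter with 0.176, 0.0715, 2.21 and 0 CPM in epidermis and at most 0.580 CPM in mesophyll. The median of the 3 tested genes was 0.84.

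Of 11 genes of suberin synthesis, the pathway of MYB41, 4 were tested and 1 was called higher, against 0.981% of all tested genes. KCS20, a condensing enzyme that also serves wax synthesis, rose by 3.92 (SE 0.39, adjusted p = 0.00418, edgeR quasi-likelihood test), from 4.01 ± 2.53 CPM to 56.0 ± 17.0 CPM. FAR1, CYP86B1 and ABCG20 had log2 fold changes of 5.55, 4.17 and -2.69 and were not called (adjusted p = 0.298, 0.218 and 0.818). CYP86A1, GPAT5, FAR5 and ABCG6 were at 0 pairs in every library, as was MYB41.

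Among 9 relatives of the factors, 3 were tested and 0 were called by the edgeR quasi-likelihood test with the block. MYB17 and DEWAX2 were at an unadjusted p under 0.05, were called by the likelihood ratio test and by DESeq2, and did not overlap between the tissues. Of all tested genes, these 2 tests called 3.53% and 4.98% higher in epidermis, and 5.5% had every epidermis library above every mesophyll library. The study also lists MYB17 as higher in epidermis. MYB17, a relative of MYB16 and MYB106, had 12.8, 16.1, 5.08 and 6.37 CPM in the epidermis libraries against 0.142, 1.14, 0.598 and 0.258 CPM (log2 fold change 4.41, SE 1.11, adjusted p = 0.132). Only mesophyll replicate 2 reached 1 CPM, so that MYB17 passed the filter through its level in epidermis, and nothing is read from its lack of overlap. DEWAX2, the closest relative of DEWAX in the list, had 32.7, 52.9, 32.3 and 40.3 CPM in the epidermis libraries against 8.66, 11.6, 0.665 and 2.13 CPM (log2 fold change 3.41, SE 0.71, adjusted p = 0.0736). Its sign was the opposite of that of DEWAX. ERF105 was high in epidermis replicate 2 alone, with 157 CPM against 1.30 to 4.95 CPM in the other epidermis libraries. MYB31 and MYB49 were at 0 pairs, and MYB60, MYB74, MYB102 and ERF104 failed the filter.

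Of 15 other regulators of cuticle and suberin, 10 were tested and 2 were called higher, against 0.981% of all tested genes. PDF2 and ATML1, the homeodomain factors that define the protoderm, rose by 3.15 (SE 0.30, adjusted p = 0.00377) and 3.12 (SE 0.47, adjusted p = 0.0236, edgeR quasi-likelihood test). Both also belong to the protoderm markers. ATML1 lost its call without replicate 1 or 2 (adjusted p = 0.133 and 0.0658). The median of the list was 0.18, near that of all genes. WRI1, an activator of fatty acid synthesis throughout the embryo, was at 286 ± 39.7 CPM and 267 ± 29.7 CPM, and MYB92, a suberin regulator, was not called with 3.98 ± 3.12 CPM in the epidermis against 14.1 ± 5.06 CPM in the mesophyll (log2 fold change -2.59, adjusted p = 0.544).

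The genes most like each tested factor were found by the root mean square difference of log2 CPM, each centred on its own mean, over the 8 libraries and 13588 genes of at least 5 CPM on average. The nearest gene to MYB96 was MYB94, at 0.68, followed by AT5G06270 at 0.71 and ABCG34 at 0.78. The nearest to MYB94 were AT5G06270 at 0.50, CYP71B5 at 0.52 and AT3G16370 at 0.53, and those to MYB30 were CYP71B5 at 0.64, COL5 at 0.68 and MSS3 at 0.75. The nearest to DEWAX were BT5 at 0.53, ATOEP16-2 at 0.55 and PAL4 at 0.55, all with negative log2 fold changes and none called.

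MYB94 and MYB96 shared more in sequence than the motif alone. A block of 65 bases, 206 to 142 bases before the start of MYB94 (chr3:17541449-17541513) and 65 to 1 bases before the start of MYB96 (chr5:25081142-25081206), agreed at 58 positions without a gap. The 2 blocks are set under each other, with the L1 box in capitals.
MYB94 block: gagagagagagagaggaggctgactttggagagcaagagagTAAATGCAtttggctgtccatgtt
MYB96 block: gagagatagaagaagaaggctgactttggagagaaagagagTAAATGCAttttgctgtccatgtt
The first base of the L1 box lies 165 bases before the start in MYB94 and 24 bases before it in MYB96. An identical run of 18 bases holds the box, aagagagTAAATGCAttt, and occurs in 2 of 27443 protein-coding promoters, those of MYB94 and MYB96. MYB30 shares the 13 bases gctgactttggag with both blocks, 60 to 48 bases before its start, but has no L1 box in its window.

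The L1 box was searched as TAAATGCA and TAAATGTA on both strands, and 5.51% of all 27443 promoters of this length hold it, 1.9% with the word TAAATGCA. Among the 10 factors it was found in MYB94 and MYB96, and among the called genes of the lists in FDH and LTPG1. All other called genes of the lists lacked it, among them PDF1, PDF2, ATML1, KCS6 and DCR. Genes of the lists that were not called also held it, among them RBCS1A, CBF1 and KRS. A MYB element, TAACTA or TAACTG on either strand, was found in 7 of the 10 factors (SHN1, SHN2, SHN3, MYB16, MYB106, MYB30 and DEWAX) and in 31.5% of all promoters. The abscisic acid element, ACGTGTC or ACGTGGC, was found in MYB41 and in 7.01% of all promoters, and the GCC box, GCCGCC, in none of the 10 and in 2.26%. These matches are descriptions of the windows, and none of them was tested for binding.

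**Figure D5:**
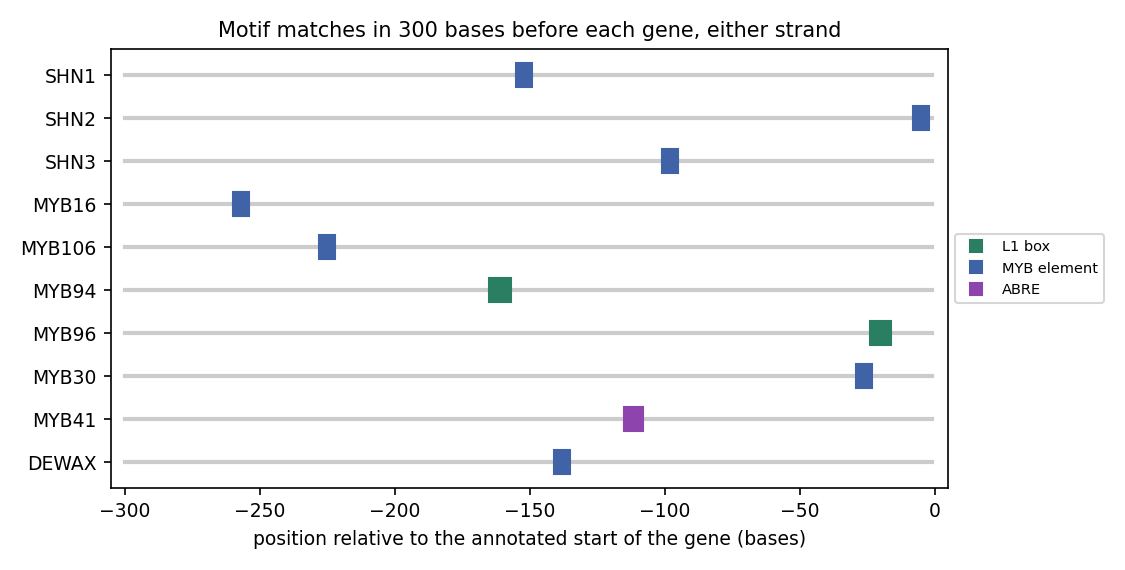
Positions of motif matches on either strand within 300 bases before the annotated start of each of the 10 genes (horizontal axis, bases from the start). The L1 box appears only in MYB94 and MYB96, the abscisic acid element (ABRE) only in MYB41, and a MYB element in the other 7 genes.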

How the data were processed

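Read pairs had been trimmed, cleared of ribosomal RNA, aligned to the TAIR10 transcripts with Bowtie2 (TopHat2 is also named in the submitters' processing notes) and counted per gene model by the authors, who kept pairs of which both reads matched a single gene. The deposited values are raw counts of pairs, with counts of single reads and the model length as another column. Counts were fitted in edgeR 4.0.16 (R 4.3.3) with TMM scaling, tissue and replicate number as a block, a minimum of 1 CPM in 4 or more of the 8 libraries, a quasi-likelihood F test and Benjamini-Hochberg adjustment, with calls at 0.05 or less. The study fitted harvest date, which the labels do not give. Its likelihood ratio test was replaced here by the quasi-likelihood test and stands among the alternatives. CPM of single genes use the pairs that fell in genes passing the filter, summed per library and multiplied by the TMM factors. Marker sums and levels per 1000 CPM of protoderm markers use the library totals of 27676412 to 36685627 pairs without TMM factors. The fit was tested on simulated counts, where it called 41 of 100 genes changed 4-fold and 73 of 100 changed 16-fold. Among the unchanged genes it made 4 false calls. For the nearest genes, 0.5 was added to each CPM before the log2. The residuals of libraries of the same number came from log2 CPM with a prior count of 2. Marker sums were compared by exact permutation over 70 arrangements.

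Alternatives were a fit without the block, edgeR's likelihood ratio test, DESeq2 1.42.0, the bias-adjusted test, RLE scaling, no filter, a filter of 10 CPM, single reads and each replicate left out. Leaving out single libraries without the block was added after seeing the data. The members and lists were chosen with earlier results of these data known. Named were all 10 factors, the 4 genes of lowest adjusted p among those called in each list, or the 2 with the highest CPM where none was called, and the 3 nearest genes of each tested factor; further genes were named after their values were seen. Sequences and positions come from RefSeq, assembly TAIR10.1, for all 10 factors, while the deposited tables use TAIR10 models without coordinates.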

Additional observations from a re-analysis of the deposited data

Results flagged for a closer look

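In groups of 4 libraries, 4 values stood apart from the other 3 by Dixon's 95% criterion, which chance meets in about 1 in 20 groups of normally distributed values. The number of groups screened is not given, so the 4 values are not set against an expected count. MYB16 reached 9.79 CPM in epidermis replicate 2, against 0 to 1.65 CPM in the other epidermis libraries. DEWAX reached 22.4 CPM in mesophyll replicate 4, against 5.72 to 6.55 CPM in the other mesophyll libraries. The summed rapid stress and touch response genes reached 1447 CPM in epidermis replicate 2, the library that also held the highest MYB94, MYB96, MYB30 and MYB16. The value of SHN2 in mesophyll replicate 3, 0.0332 CPM, is that of 1 read pair. With the other mesophyll libraries at 0, any count there would meet the criterion.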

How the results depend on the processing

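The 171 calls became 361 with no replicate block (276 higher, 85 lower), 821 with the likelihood ratio test (557 and 264), 1320 with DESeq2 (786 and 534), 633 with the bias-adjusted test (472 and 161) and 257 with the 10 CPM filter (46 lower); without a filter, 31 were lower. With a replicate or a library left out, calls ranged from 54 to 264 (higher 54 to 217, lower 0 to 110). MYB94 was called at log2 fold changes of 3.71 without the block, 4.22 (likelihood ratio), 4.24 (DESeq2), 3.72 (bias-adjusted) and 4.19 (10 CPM filter), and ranged from 3.24 to 5.02 on leaving out replicates or libraries. MYB96 was called at 6.48, 7.30 and 4.49 by the likelihood ratio test, DESeq2 and the bias-adjusted test (4.01 to 8.04 on leaving out), and MYB30 at 2.26 by the last of these (1.68 to 3.88). DEWAX ranged from -2.70 to -0.10 on leaving out and was never called, and no factor changed sign. The block does not rest on labels: across genes, the residuals of the 2 libraries of a number had r between -0.0102 and 0.0702, and 1 of 4 numbers matched best with itself.

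Called wax genes numbered 7 with the likelihood ratio test and with DESeq2 and 2 to 4 on leaving out a replicate, and their median was 2.01 with the 10 CPM filter. Called cutin genes numbered 3 to 5 on leaving out a replicate. Of genes repressed by DEWAX, 2 were called without the block and with the likelihood ratio test, DESeq2, the bias-adjusted test and the 10 CPM filter, and the median without a filter was 1.17. Suberin calls were 3, 2 and 3 (likelihood ratio, DESeq2, bias-adjusted), with a median of 1.24 without a filter. Calls among relatives were 1 with no block or the 10 CPM filter and 2 with the other tests, with a median of 1.35 without a filter and 2.08 to 4.29 on leaving out a replicate. The median of other regulators was 0.10 with the 10 CPM filter and -0.068 to 0.26 on leaving out, with 1 to 2 calls. Stress gene calls were 1 with no block or the 10 CPM filter, 7 with the likelihood ratio test and with DESeq2, 4 with the bias-adjusted test and 0 to 1 on leaving out a replicate. The cause of these shifts was not tested.

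The depth allows no statement on SHN1, SHN2, SHN3, MYB106 or MYB41 beyond their limits in CPM.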
